A study of Mus musculus with 3 samples.

Results

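Hyaluronan was followed here through 8 genes that make it, break it down or bind it at the cell: the synthases Has1, Has2 and Has3, the breakdown genes Hyal1, Hyal2 and Cemip, and the receptors Cd44 and Hmmr. The genes were listed by name for their role in hyaluronan handling, with earlier results of these data known, and all 8 were found among the 32285 genes of the count matrices. Single-cell RNA-seq of mouse dorsal skin gave 3 libraries, 1 per condition. CON came from mice that were not irradiated. UV came from mice given UVA at 0.60 mW/cm2 with UVB at 3.5 mW/cm2 over 12 weeks. Rux came from mice with the same exposure and a topical ointment with 1.5% ruxolitinib, an inhibitor of the kinases JAK1 and JAK2 that relay cytokine signals to STAT factors. In the paper's treatment design the control and UV groups received the vehicle without ruxolitinib, which the sample labels do not state. All mice were labelled wild-type C57BL/6J of 8 weeks. The paper gives this age with the purchase of the mice and took skin after the final exposure, so irradiated mice were older when sampled. The number of mice pooled in a library is not stated in the sources used here.

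Hyaluronan is a long unsulfated sugar polymer of the extracellular matrix. It is built at the plasma membrane by the synthases from UDP-glucuronic acid and UDP-N-acetylglucosamine, and it holds water in the dermis and between keratinocytes. It is cut outside the cell by surface hyaluronidases and by Cemip, and further in lysosomes, while Cd44 on the cell surface is its main receptor in skin. Hmmr was named as a hyaluronan-mediated motility receptor and also acts inside the cell at the mitotic spindle.

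The libraries held 13170, 12411 and 11287 called cells in CON, UV and Rux, with 165337289, 133972374 and 131570327 UMIs, a UMI being 1 counted RNA molecule. After filtering, 10777, 10231 and 9299 cells with medians of 7549, 7661 and 9432 UMIs were kept. Every library was labelled female, yet each carried RNA of the Y-linked gene Ddx3y at 110, 115 and 121 CPM in CON, UV and Rux, while Xist stayed at 0.0921, 0.119 and 0.112 CPM. CON and UV shared 50 cell barcodes, CON and Rux 28, and UV and Rux 40. Cells were clustered together without the 8 genes, and 9 classes with at least 100 cells in every library were named from markers: fibroblasts (FB-like), basal keratinocytes (KB-like), hair follicle (HF-like), lymphatic (LEC-like) and vascular endothelium (VEC-like), pericytes (PCY-like), lymphocytes (LYM-like), myeloid cells (MYE-like) and Schwann cells (SCH-like). The name KB-like means that basal markers scored first, and the clusters so named differed widely in that score. Its cluster 6 (Itga2, Kcnk10, Wincr1) had a mean log2 ratio of basal markers to the average cluster of only 0.08. That cluster held 481, 394 and 199 cells in CON, UV and Rux. FB-like cells numbered 3358, 5114 and 5011 in CON, UV and Rux, and KB-like cells 1743, 865 and 765, so class makeup differed between libraries.

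Levels are given as CPM, the UMIs of a gene per 1000000 UMIs of the class in that library. Log2 ratios compare these levels after 0.5 UMI was added to each sum. Intervals are exact 95% intervals that cover counting error only. With 1 library per condition there was no replicate, no test was made, and the condition and the library cannot be told apart. UV over CON and Rux over UV share the UV library, and both CON contrasts share CON. UMIs come from the 3′ end of transcripts and levels were compared within a gene only.

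FB-like cells held the large majority of all Has1 UMIs, the largest share of the Has2 UMIs in both irradiated libraries, and 22.4%, 50.4% and 64.2% of the Cd44 UMIs in CON, UV and Rux. In these cells Has1 was lower in Rux than in the other libraries, whereas Has2 and Cd44 were higher in both irradiated libraries than in CON. For Has2 in UV over CON this order did not hold once fibroblast subcluster 0 (led by Dtna, Limch1 and Akr1c18) was left out. With fibroblast subclusters weighted by their CON shares, Has2 was within 1.5-fold in both CON contrasts. So was Cd44 in Rux over CON, though still higher. Of the 8 genes, 3 reached a mean of 10 CPM in FB-like cells. In UV over CON, 2 of these 3 (Has2 and Cd44) were past 1.5-fold higher, against 6.21% of all tested genes, and 0 were past it lower, against 8.13%. In Rux over UV, 0 were past it higher, against 3.27%, and 1 (Has1) was past it lower, against 5.12%. In Rux over CON, 2 (Has2 and Cd44) were past it higher, against 7.02%, and 1 (Has1) was past it lower, against 10.1%. The median log2 ratio of all tested genes in FB-like cells was −0.11, 0.03 and −0.08 in these contrasts. With 3 genes such shares describe these genes only.

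In KB-like cells 5 of the 8 genes reached a mean of 10 CPM, and only Has2 in UV over CON was past 1.5-fold. That was 1 of 5 genes higher, against 4.1% of tested genes, with 0 lower, against 3.29%. None of the 5 genes was past 1.5-fold in Rux over UV, where 3.82% of tested genes were higher and 2.36% lower, or in Rux over CON, where 6.98% were higher and 6.31% lower.

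**Figure D1:**
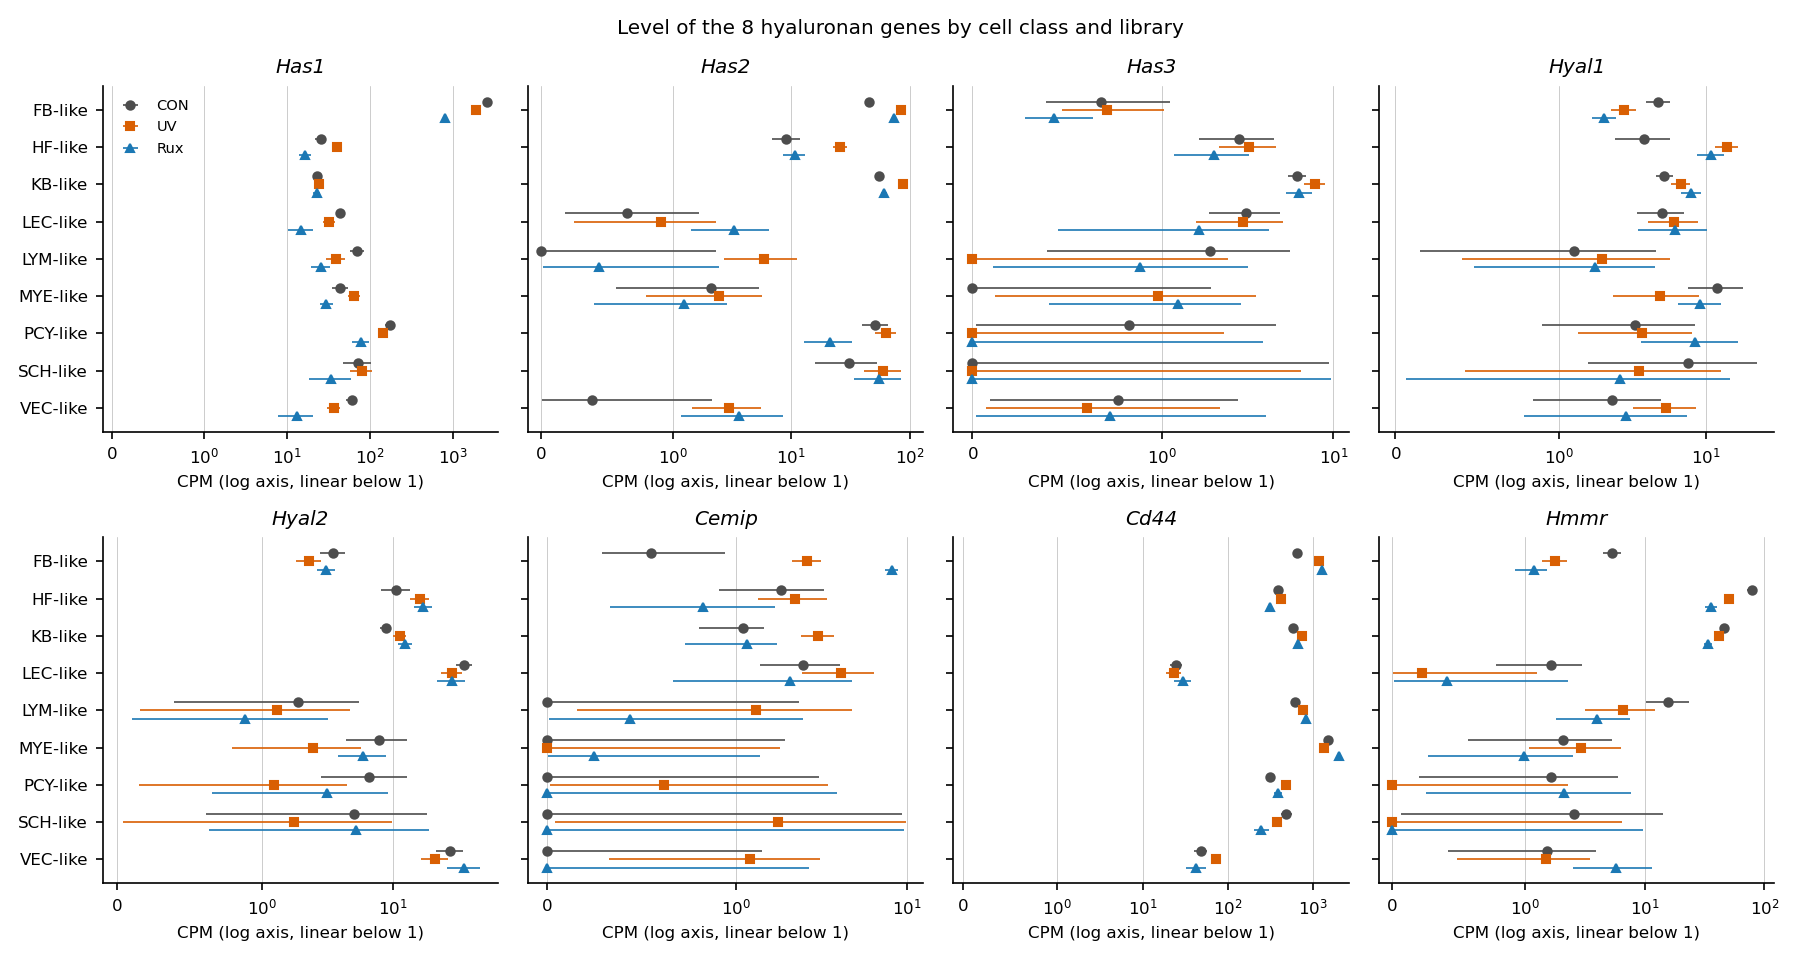
Levels of the 8 hyaluronan genes in each named class, in CPM of the class on a log axis that is linear below 1, for the CON, UV and Rux libraries; points are the class sums of 1 library and bars are exact 95% Poisson intervals. Has1 stood highest in FB-like cells with 2574, 1887 and 805 CPM, Cd44 in MYE-like cells, Hyal2 in endothelium, and Hmmr in HF-like and KB-like cells.

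Promoter windows of the members whose results carry the account are shown here, with 250 bases before the RefSeq start of each gene on GRCm38.p6. Has1 is shown as the member lower in Rux among those that reached 10 CPM in fibroblasts, Cd44 as the receptor higher there in both irradiated libraries, and Hmmr as the gene whose RNA lay almost wholly in dividing cells. The windows are chr17:17855189-17855438 on the minus strand for Has1, chr2:102901666-102901915 on the minus strand for Cd44, and chr11:40733438-40733687 on the minus strand for Hmmr. Capitals mark CCAAT, read on either strand, so that ATTGG is its reverse form.
Has1: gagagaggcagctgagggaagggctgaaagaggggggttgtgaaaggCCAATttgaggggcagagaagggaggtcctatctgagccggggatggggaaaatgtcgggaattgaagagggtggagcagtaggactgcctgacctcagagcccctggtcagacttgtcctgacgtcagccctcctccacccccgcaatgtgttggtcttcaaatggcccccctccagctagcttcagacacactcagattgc
Cd44: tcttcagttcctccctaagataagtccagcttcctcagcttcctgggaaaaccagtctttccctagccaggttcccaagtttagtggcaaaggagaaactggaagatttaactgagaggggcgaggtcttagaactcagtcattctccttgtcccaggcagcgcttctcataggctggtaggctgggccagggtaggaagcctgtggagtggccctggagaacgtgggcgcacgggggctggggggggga
Hmmr: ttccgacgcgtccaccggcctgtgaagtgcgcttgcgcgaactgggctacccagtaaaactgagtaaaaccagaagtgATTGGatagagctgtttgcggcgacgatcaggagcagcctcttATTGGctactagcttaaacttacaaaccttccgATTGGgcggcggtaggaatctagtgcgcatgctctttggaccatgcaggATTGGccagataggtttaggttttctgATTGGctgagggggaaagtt
A CCAAT box is a short element common in promoters of genes used in dividing cells. The Hmmr window held 5 of them, 20, 47, 96, 129 and 172 bases before the start. Of 32851 mouse promoter windows of the same length, 33.8% held at least 1 CCAAT, and 70 windows, or 0.213%, held 5 or more. The Has1 window held 1, 203 bases before the start, and the Cd44 window held 0. TTCNNNGAA, a spacing bound by STAT factors, and TGANTCA, bound by AP-1, were searched on both strands too and occurred in 7.02% and 6.75% of all windows. Neither was found in the windows of Has1, Hyal1, Hyal2, Cemip, Cd44 or Hmmr, the 6 members with an entry. A match or its absence describes these letters in this window only.

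Has1, one of the synthases, lies at chr17:17843323-17855205 on the minus strand of GRCm38. In FB-like cells it stood at 2574 CPM in CON (2553 to 2594), 1887 in UV (1874 to 1901) and 805 in Rux (798 to 812), from 60772, 74392 and 45175 UMIs. CON was highest and Rux lowest, and the counting intervals did not overlap. The log2 ratio was −0.45 (−0.46 to −0.43) for UV over CON, −1.23 (−1.25 to −1.21) for Rux over UV and −1.68 (−1.69 to −1.66) for Rux over CON. FB-like cells held 85.6%, 93.3% and 95% of all Has1 UMIs. Fibroblasts made up 31.2% of the kept cells in CON, 49.99% in UV and 53.9% in Rux. The level over all kept cells weighs classes by their UMIs. FB-like cells held 23612337 of 141107589 UMIs in CON, 39415997 of 117433796 in UV and 56120494 of 115741413 in Rux. With that larger part in UV, the ratio over all kept cells was 0.43 (0.42 to 0.45) for UV over CON, opposite in sign to that within fibroblasts.

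Depth per cell moved with the libraries, with medians of 6178, 7348 and 9989 UMIs in the fibroblasts of CON, UV and Rux. Each cell was therefore also thinned to 2000 UMIs, which left out 133, 252 and 129 shallower cells. The share of FB-like cells with a Has1 UMI was then 76.9% in CON (75.4 to 78.3), 75.8% in UV (74.6 to 77.0) and 54.0% in Rux (52.6 to 55.4). Without thinning it was 85.1%, 85.3% and 75.9%. In KB-like cells, deeper at medians of 18956, 24664 and 19491 UMIs, the thinned share was 6.099%, 5.28% and 4.47%. The share thus hardly differed between CON and UV and was lower in Rux, far above the keratinocyte share in each library.

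In the other named classes Has1 was far lower and was set against the RNA of fibroblast markers. In each of the other 8 classes, Has1 UMIs per 1000 UMIs of the 6 fibroblast markers (Col1a1, Col1a2, Col3a1, Dcn, Lum and Pdgfra) lay between 0.423 and 1.88 times the ratio in FB-like cells of the same library. Those markers themselves summed to 435, 789 and 644 CPM in KB-like cells and to 33576, 25764 and 25653 CPM in FB-like cells. In CON the Has1 ratio lay above that of FB-like cells (76.7) in PCY-like, VEC-like and LYM-like cells, at 109, 100 and 99.8. In UV it was above 73.3 in MYE-like, HF-like and LEC-like cells, at 108 (90.4 to 128), 92.6 and 88.1. In Rux it was above 31.4 in MYE-like, HF-like, LYM-like and KB-like cells, at 59.0 (48.9 to 70.6), 51.4, 45.0 and 35.4. It lay below in SCH-like cells of every library, in KB-like cells of CON and UV, LEC-like cells of CON and PCY-like cells of UV. These are the cases where the counting intervals did not overlap. The part of free fibroblast RNA in these levels was not tested. PCY-like cells, next in level among the 9 classes, had Has1 at 174, 144 and 77.1 CPM, and the smaller MP-like class (Pax7, Myod1, Cdh15) had 346, 370 and 211 CPM on 157, 50 and 33 cells. An unnamed cluster of 1623 cells that carried fibroblast markers at low depth, led by Gdf10 and Mgp, had 3189, 1698 and 791 CPM, the same order as FB-like cells. Unnamed cluster 18, where fibroblast and basal keratinocyte markers were not separated, had 1008, 641 and 218 CPM. It held 436, 63 and 49 cells at medians of 593, 612 and 629 UMIs.

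Within the fibroblasts, 13 subclusters were set apart without the 8 genes, and those with at least 50 cells in both libraries of a contrast were compared. Has1 was lower in Rux than in UV in 11 of 11, with the interval below 0 in each, and 10 were past 1.5-fold. The 11 log2 ratios ran from −2.68 in subcluster 1 (Pde4c, Pecam1, Gm47507) to −0.56 in subcluster 7 (Angptl7, Zfp804b, Ecrg4). Rux was also below CON in 9 of 9 subclusters, all past 1.5-fold. In UV over CON the interval lay below 0 in 9 of 10 subclusters, 6 of them past 1.5-fold, and above 0 in 1, subcluster 1, at 0.56 (0.46 to 0.67).

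The size of the UV to CON difference in the sum of all FB-like cells depended on 1 subcluster. Subcluster 3, led by Socs3, Gadd45g, Zfp36, Socs1 and Irf1, early response and cytokine feedback genes, made up 33.2%, 6.96% and 0.319% of FB-like cells in CON, UV and Rux. Its Has1 level was among the highest, at 4192, 3022 and 1125 CPM, the last from 164 UMIs in 16 cells. Without subcluster 3 the log2 ratio of UV over CON in the sum was 0.01, while Rux over CON was still −1.15. That sum mixes subclusters whose shares differed between libraries, and within single subclusters UV was below CON in 9 of 10. Rux over UV ran from −1.34 to −1.06 under all the alternatives.

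**Figure D2:**
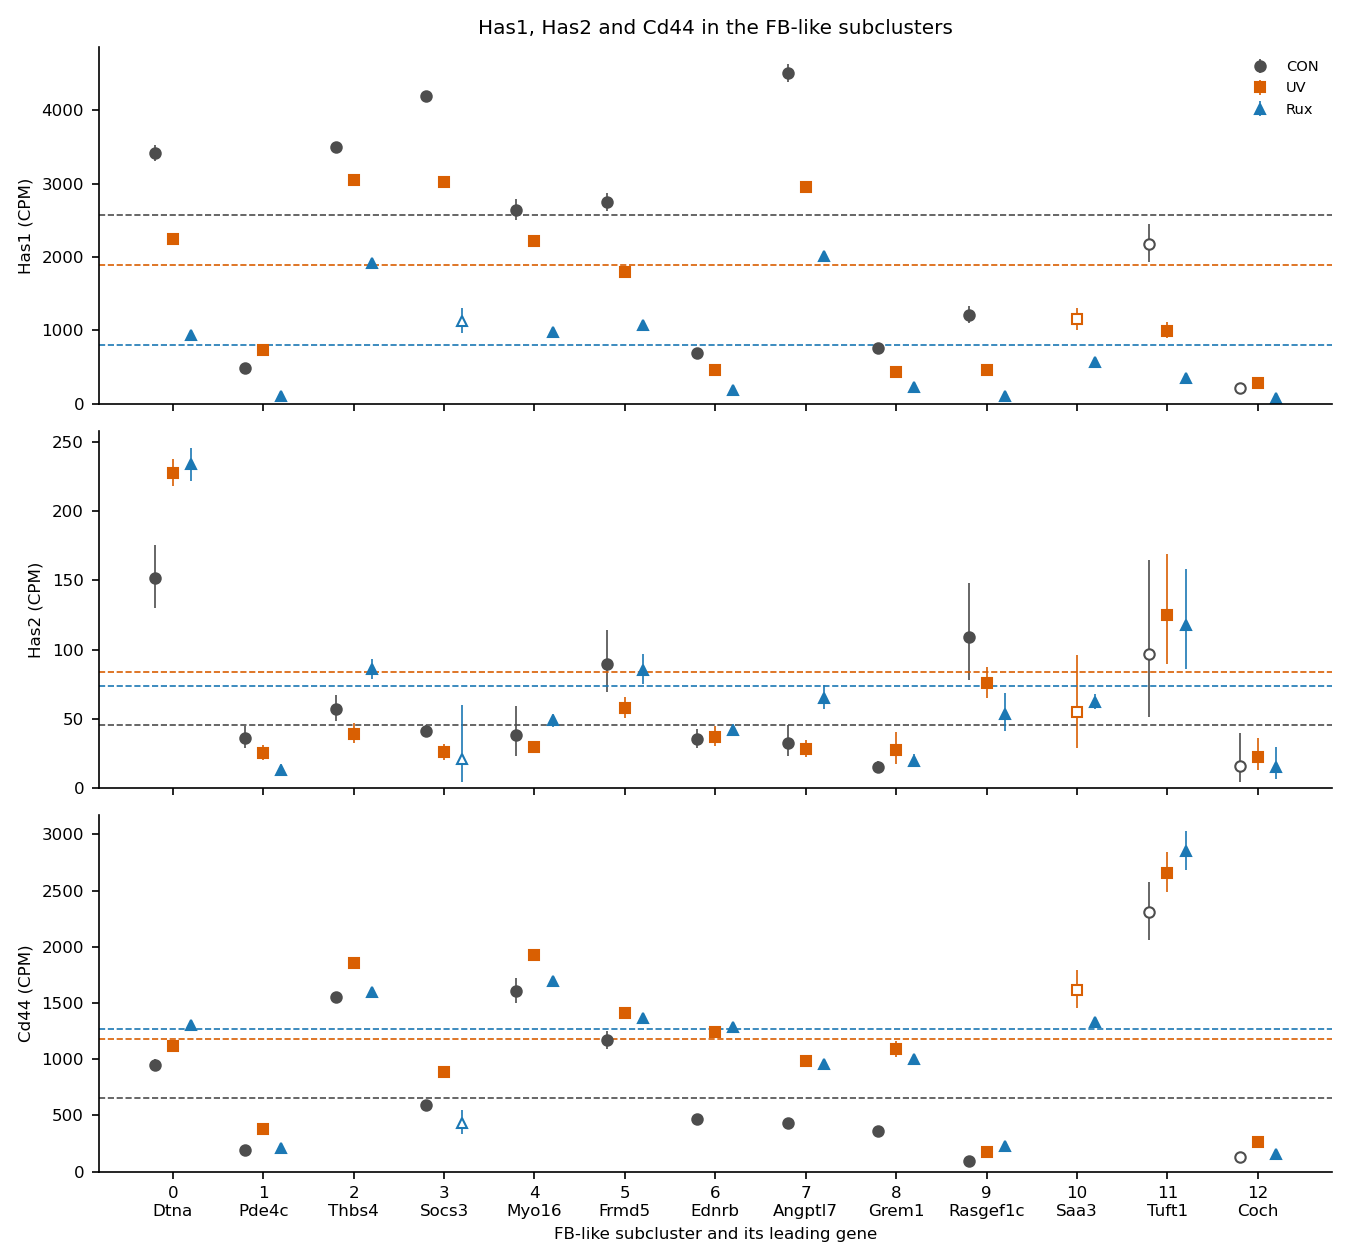
Levels of Has1, Has2 and Cd44 in the subclusters of FB-like cells, in CPM, by library; bars are exact 95% Poisson intervals, dashed lines are the level over all FB-like cells of the library, and open symbols are subclusters with fewer than 50 cells there. For Has1 the Rux point lies below the UV point in all 11 subclusters compared, while Has2 is highest in subcluster 0 at 151, 228 and 234 CPM.

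Has2 is the synthase whose loss is lethal to the embryo, and it lies at chr15:56665627-56694539 on the minus strand, with the antisense gene Has2os on the other strand. KB-like and FB-like cells had like levels of it as class sums. Clusters within the KB-like class differed widely. In CON they ran from 1.54 CPM in cluster 38 (Cstdc5, Stfa3, Stfa1) to 69.4 CPM in cluster 6 (Itga2, Kcnk10, Wincr1). The basal marker score, a mean log2 ratio to the average cluster, was 3.13 in cluster 19 and 2.35 in cluster 38. Has2 was 2.09 and 1.54 CPM in these clusters in CON. The score was 0.08 in cluster 6, 1.58 in cluster 8, 1.51 in cluster 25 and 1.50 in cluster 36. Has2 in those was 69.4, 65.3, 56.6 and 10.3 CPM in CON. KB-like cells stood at 55.5 CPM in CON (53.3 to 57.7), 88.1 in UV (84.6 to 91.7) and 60.5 in Rux (57.1 to 64.0). FB-like cells stood at 45.1 CPM in CON (42.4 to 47.9), 83.7 in UV (80.9 to 86.6) and 73.6 in Rux (71.3 to 75.8). UV was highest in both classes. The ranges of these 2 classes over the libraries overlapped, and SCH-like cells (30.5, 59.9 and 55.0 CPM) and PCY-like cells (51.2, 62.5 and 21.1 CPM) overlapped with them. HF-like cells had 9.09, 25.9 and 10.7 CPM, and the highest value of an endothelial, lymphoid or myeloid class was 5.90 CPM, in LYM-like cells of UV.

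The Has2 of KB-like cells as a class was far above what their fibroblast marker RNA would carry at the fibroblast ratio. Per fibroblast marker UMI it was 95.1, 34.4 and 32.8 times as frequent in KB-like as in FB-like cells of the CON, UV and Rux libraries. After thinning to 2000 UMIs, 5.52% (4.50 to 6.70), 12.9% (10.7 to 15.3) and 7.75% (5.95 to 9.89) of KB-like cells had a Has2 UMI. The shares in FB-like cells were 7.81%, 11.6% and 10.9%. In VEC-like cells, at medians of 5424, 5823 and 6520 UMIs, they were 0%, 0.234% and 1.94%. With 0 of 377 cells, CON allows a share of up to 0.796% there by a limit of 3 counts, and up to 0.974% by the exact interval.

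The source of Has2 UMIs changed place between libraries. KB-like cells held 53.0% of them in CON, 34.2% in UV and 19.8% in Rux. Within that class, cluster 6, with the lowest basal marker score, held 1276 of 2447 in CON, 1847 of 2376 in UV and 842 of 1206 in Rux. FB-like cells held 23.1%, 47.4% and 67.7%. Both the level per class and the number of cells per class differed between libraries, and these shares combine them.

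In FB-like cells the log2 ratio of Has2 was 0.89 (0.79 to 0.99) for UV over CON, −0.19 (−0.25 to −0.12) for Rux over UV and 0.71 (0.61 to 0.81) for Rux over CON. The first value depended on the share of 1 subcluster. Whether that share followed the irradiation or the sampling of cells cannot be told apart with 1 library per condition. Subcluster 0, led by Dtna, Limch1 and Akr1c18, had the highest Has2 in every library, at 151, 228 and 234 CPM, and was 4.35%, 19.7% and 10.5% of FB-like cells. Without it, UV over CON was −0.026 and Rux over UV was 0.44. With subclusters weighted by their CON shares, the 3 ratios were −0.13, 0.15 and 0.02, though subcluster 3 then carries the largest weight and held 16 cells in Rux. With at least 500 genes per cell and at most 5% mitochondrial UMIs, only 58 of the 1680 cells of subcluster 0 were still FB-like, and UV over CON was 0.03 and Rux over UV 0.68. Under that filter, clusters of 1098 cells (Dtna, Sntg1, Arhgap20) and 2791 cells (Bmp5, Myoc, Inmt) were kept but bore no class name. In both, erythrocyte markers scored above fibroblast markers, with fewer than 3 erythrocyte markers detected. These 2 ratios therefore rest on the naming of clusters as well as on the filter.

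Within subclusters Has2 was not higher throughout. In UV over CON the interval lay above 0 in 2 of 10, subcluster 0 at 0.59 (0.37 to 0.82) and subcluster 8 (Grem1, F13a1, Cadps) at 0.87 (0.10 to 1.57). It lay below 0 in 5 of 10, from −0.67 in subcluster 3 to −0.51 in subcluster 1. In Rux over CON the interval lay above 0 in 3 of 9 subclusters and below 0 in 2. In Rux over UV it lay above 0 in 4 of 11, with 1.14 in subcluster 2 (Thbs4, Grm8, Bmp5) and 1.21 in subcluster 7, and below 0 in 2. Has1 was lower in Rux than in UV in all 11 subclusters. The 2 synthases thus differed in direction in those 4 and were both lower in Rux in those 2.

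**Figure D3:**
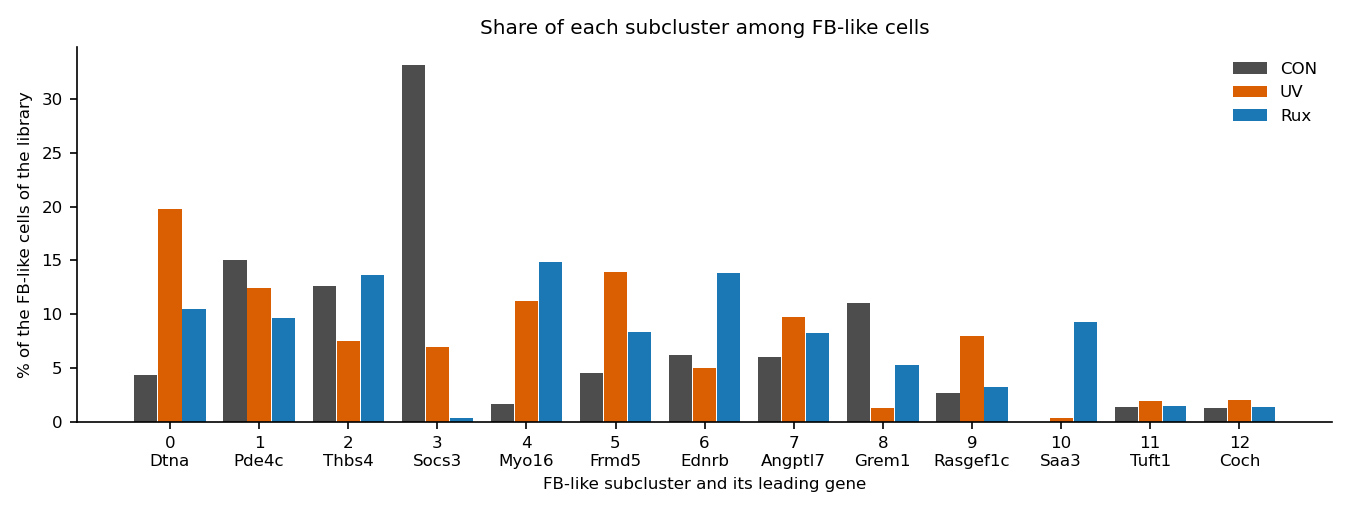
Share of FB-like cells in each subcluster, in percent, for the CON, UV and Rux libraries. Subcluster 0 is 4.35%, 19.7% and 10.5% and subcluster 3 is 33.2%, 6.96% and 0.319% of the FB-like cells, the largest shifts beside the Has2 and Has1 ratios.

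In KB-like cells the Has2 ratio was 0.67 (0.59 to 0.75) for UV over CON, −0.54 (−0.64 to −0.44) for Rux over UV and 0.12 (0.02 to 0.22) for Rux over CON. UV stood above both other libraries. These cells came from 6 clusters whose sizes differed: cluster 19 (Il20ra, Fcgbp, Sox6), with Has2 at 2.09, 2.69 and 2.88 CPM, held 460 cells in CON, 16 in UV and 71 in Rux. In the larger clusters 6 (Itga2, Kcnk10, Wincr1) and 8 (Adamts19, Krt24, Hsd11b2), Has2 was 69.4, 111 and 96.3 CPM and 65.3, 83.1 and 79.1 CPM, CON lowest in both. Cluster 25 (Wfdc18, Pcp4, Pthlh) had the opposite order, with Has2 at 56.6, 20.03 and 5.002 CPM on 79, 27 and 14 UMIs, and it held 66, 98 and 183 cells. Weighted by CON shares of the clusters, UV over CON was 0.51, and it was 0.44 without doublet removal and 0.49 at a clustering resolution of 0.8, each short of 1.5-fold. HF-like cells showed the same order with ratios of 1.50 (1.08 to 1.96) for UV over CON and −1.27 (−1.64 to −0.92) for Rux over UV, on 55, 235 and 91 UMIs. PCY-like cells were the exception, with 0.29 (−0.18 to 0.77) and −1.54 (−2.34 to −0.86), on 62, 101 and 20 UMIs. Thinned to 2000 UMIs, 3.48%, 7.42% and 5.50% of PCY-like cells had a Has2 UMI, with overlapping intervals. CON was lowest in that share, unlike in the level.

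Has3, at chr8:106870242-106884566 on the plus strand, makes shorter chains and is known from epidermis. KB-like cells led the 9 classes at 6.14 CPM in CON, 7.75 in UV and 6.32 in Rux. They had 271, 209 and 126 UMIs, of which cluster 6 held 172, 152 and 80. Their range did not overlap that of HF-like cells, next of the 9 at 2.81, 3.19 and 2.00 CPM, and FB-like cells were under 1 CPM in each library. Among smaller classes, melanocytes (MEL-like) had 2.27, 7.14 and 3.66 CPM on 10, 9 and 3 UMIs, which overlapped the keratinocyte range. UV over CON in KB-like cells was 0.34 (0.07 to 0.60), within 1.5-fold. Somewhat higher values stood in unnamed epithelial clusters, cluster 7 (Dlx4, Ung, Shh) at 12.1, 9.23 and 7.72 CPM and cluster 27 (Edar, Cenpf, Msx2) at 14.5, 8.32 and 4.80 CPM, both lowest in Rux.

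The genes of breakdown were at low level in the 9 classes, at most 35.4 CPM. Hyal2, a surface hyaluronidase that cuts long chains, lies at chr9:107567945-107572779 on the plus strand, opposite Gm9917. Endothelium led, with 35.2, 28.3 and 28.4 CPM in LEC-like cells of CON, UV and Rux and 27.6, 21.01 and 35.4 CPM in VEC-like cells, and these ranges overlapped. The VEC-like ratio of Rux over UV was 0.76 (0.20 to 1.30), on 49 and 70 UMIs. It lay in cluster 29 (Cytl1, Sele, Selp), at 12.3 CPM in UV and 58.3 in Rux on 10 and 29 UMIs, while the larger cluster 13 (Adgrl4, Ccdc85a, Sox17) had 23.8 and 22.6 CPM. HF-like cells followed at 10.6, 16.2 and 17.1 CPM and KB-like cells at 8.84, 11.4 and 12.5 CPM, CON being lowest in both. In FB-like cells Hyal2 was at 3.47, 2.28 and 3.10 CPM, on 82, 90 and 174 UMIs. Sebaceous (SG-like) cells had more, 53.4 and 33.3 CPM in CON and UV from 47 and 37 cells, with 1 cell only in Rux.

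Hyal1, a lysosomal hyaluronidase at chr9:107576927-107581710 on the plus strand, overlaps Naa80 and Hyal3 on the same strand, so reads could be split among them and its counts are uncertain. None of the 9 classes passed 14.0 CPM. HF-like cells had 3.80 CPM in CON (2.41 to 5.71), 14.0 in UV (11.7 to 16.6) and 10.8 in Rux (8.71 to 13.2). CON was lowest there, with ratios of 1.85 (1.23 to 2.59) for UV over CON and 1.48 (0.83 to 2.23) for Rux over CON. FB-like cells went the other way, with 4.74, 2.77 and 2.03 CPM on 112, 109 and 114 UMIs and −0.78 (−1.17 to −0.38) for UV over CON. SG-like cells had 26.7 and 27.7 CPM in CON and UV.

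Cemip, at chr7:83932857-84086502 on the minus strand, binds hyaluronan and mediates its breakdown outside lysosomes, and Cemip2 is its relative. No named class reached 10 CPM. Its highest level was in an unnamed cluster led by Lingo2, Dcc, Adgrb3 and Hhip with 247, 259 and 90 cells, at 36.5 CPM in CON (31.6 to 41.9), 113 in UV (104 to 124) and 219 in Rux (194 to 248). Yet the share of its cells with a Cemip UMI was 17.8%, 22.0% and 16.7%, with overlapping intervals. The 5 cells with most UMIs held 49.5%, 39.4% and 94.2% of the cluster's Cemip UMIs, and 1 cell of Rux alone held 142 of 260. The higher level in Rux therefore lay in few cells.

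FB-like cells had Cemip at 0.551, 2.59 and 8.13 CPM, on 13, 102 and 456 UMIs. In Rux 319 of the 456 UMIs came from subcluster 10, led by the acute phase genes Saa3, Hp and Lcn2, which held 0, 17 and 463 cells in CON, UV and Rux. There 39 cells had a Cemip UMI, and 5 of them held 78.7% of the UMIs. All subclusters other than 10 and 12 had 10, 88 and 97 UMIs, on 3316, 4994 and 4480 cells. Subcluster 12, led by Coch, Adgrl3 and Kera, had the highest fibroblast level at 11.6, 19.3 and 74.0 CPM, on 3, 14 and 40 UMIs.

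Cd44, the cell surface receptor for hyaluronan and for osteopontin, lies at chr2:102811141-102901665 on the minus strand. As class sums, MYE-like cells led the 9 classes with 1525 CPM in CON, 1374 in UV and 2059 in Rux. FB-like cells (659, 1178 and 1270 CPM), LYM-like cells (612, 767 and 838 CPM) and KB-like cells (588, 758 and 666 CPM) followed with overlapping ranges. Endothelium was lowest, VEC-like cells at 48.3, 73.5 and 42.7 CPM and LEC-like cells at 24.96, 23.4 and 29.6 CPM. Of the smaller classes, mast cells (MC-like) had 2426, 2907 and 2630 CPM and neutrophils (NEU-like) 1848, 2306 and 1830 CPM.

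In FB-like cells CON was lowest, and the log2 ratio of Cd44 was 0.84 (0.81 to 0.86) for UV over CON, 0.11 (0.09 to 0.13) for Rux over UV and 0.95 (0.92 to 0.97) for Rux over CON. Thinned to 2000 UMIs, 55.2%, 69.2% and 70.0% of FB-like cells had a Cd44 UMI, against 5.31%, 12.4% and 12.9% of VEC-like cells. Unlike Has2, Cd44 was higher in UV than in CON in 10 of 10 fibroblast subclusters with the interval above 0, and 5 were past 1.5-fold. The ratios ran from 0.24 in subcluster 0 to 1.58 in subcluster 8, where Cd44 was 365 CPM in CON, 1090 in UV and 1006 in Rux. In the clustering of all cells, 1 of 9 FB-like clusters went the other way, cluster 9 (Mrgprg, Gm12381, Rasgef1c), with Cd44 at 433 CPM in CON and 326 in UV on 170 and 567 cells. Over all alternatives UV over CON stayed between 0.70 and 1.00.

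Rux over UV had no common direction for Cd44 in fibroblasts. The interval lay above 0 in 2 of 11 subclusters and below 0 in 5, from −0.85 in subcluster 1 to 0.37 in subcluster 9. In Rux over CON it lay above 0 in 6 of 9 subclusters, 4 of them past 1.5-fold, and the ratio weighted by CON shares was 0.41. Subcluster 6 (Ednrb, Acta2, Acan) is an example of the former, with 471, 1244 and 1284 CPM.

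The other classes had no order of Cd44 in common. KB-like cells had 0.37 (0.34 to 0.39), −0.19 (−0.22 to −0.15) and 0.18 (0.15 to 0.21) in the 3 contrasts. MYE-like cells had −0.15 (−0.23 to −0.08) for UV over CON and 0.58 (0.52 to 0.65) for Rux over UV, on 2923, 2814 and 8316 UMIs. Their cluster 20 (Chil3, Lyz2, F10) had Cd44 at 1832, 1857 and 2404 CPM on 72, 97 and 303 cells. Cluster 26 (Igkc, Ighm, C1qa) had 1796, 1286 and 2056 CPM on 150, 98 and 85 cells. Cluster 39 (Ccl22, Ccr7, Cd207) had 729, 800 and 774 CPM on 54, 45 and 59 cells. SCH-like cells had the reverse order of fibroblasts, at 491, 381 and 249 CPM, on 193, 216 and 95 UMIs. The share of SCH-like cells with a Cd44 UMI did not have that order. Without thinning it was 38.2% (30.2 to 46.7), 30.2% (23.6 to 37.5) and 35.2% (26.2 to 45.2). PCY-like cells were highest in UV, with 311, 488 and 390 CPM.

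Hmmr, at chr11:40701395-40733422 on the minus strand, was found almost only in dividing cells. A cell was called dividing when it had UMIs of at least 3 of 12 mitotic genes (such as Mki67, Top2a and Cdk1), Hmmr not among them. Such cells were 18.6%, 11.2% and 7.26% of all kept cells in CON, UV and Rux and held 98.0%, 97.7% and 96.7% of the Hmmr UMIs. Depth moved with this call: dividing cells had medians of 26503, 27496 and 30651 UMIs against 6150, 6960 and 8865 in the others.

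Over all kept cells Hmmr was at 29.3 CPM in CON (28.4 to 30.2), 17.8 in UV (17.1 to 18.6) and 11.8 in Rux (11.2 to 12.4). Within dividing cells it was 62.3 CPM (60.4 to 64.2), 50.2 (48.0 to 52.4) and 52.1 (49.3 to 55.0), and in other cells 1.11, 0.639 and 0.498 CPM. The order over all cells was the same as that of the share of dividing cells. Within dividing cells CON was also above UV and Rux with separate intervals, while UV and Rux overlapped. How much of the order came from the share and how much from the level was not tested. Among dividing cells, 55.3%, 55.3% and 52.0% had a Hmmr UMI.

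By class, HF-like cells had Hmmr at 78.1, 50.9 and 35.8 CPM and KB-like cells at 46.4, 41.4 and 33.9 CPM, and these ranges overlapped. In HF-like cells 83.7%, 61.5% and 48.2% were called dividing, and the level within them was 85.5, 68.0 and 57.9 CPM. The HF-like cluster 22 (Krt73, Krt71, Foxn1) had Hmmr at 92.7, 74.1 and 74.0 CPM on 160, 166 and 108 cells. The HF-like cluster 24 (Tchh, Krt75, Krt71) had 3.04, 13.0 and 1.78 CPM on 49, 151 and 166 cells. In KB-like cells 54.5%, 62.3% and 38.0% were dividing, at 60.1, 50.4 and 55.1 CPM within them. KB-like cells at a clustering resolution of 0.8, where other clusters bore the name, gave −1.67 for UV over CON in place of −0.16, and −0.66 when clusters were weighted by CON shares. The unnamed cluster 27, in which every cell was called dividing, had 118, 113 and 122 CPM on 226, 70 and 35 cells. FB-like cells had 5.34, 1.78 and 1.19 CPM, with 43, 18 and 29 dividing cells.

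**Figure D4:**
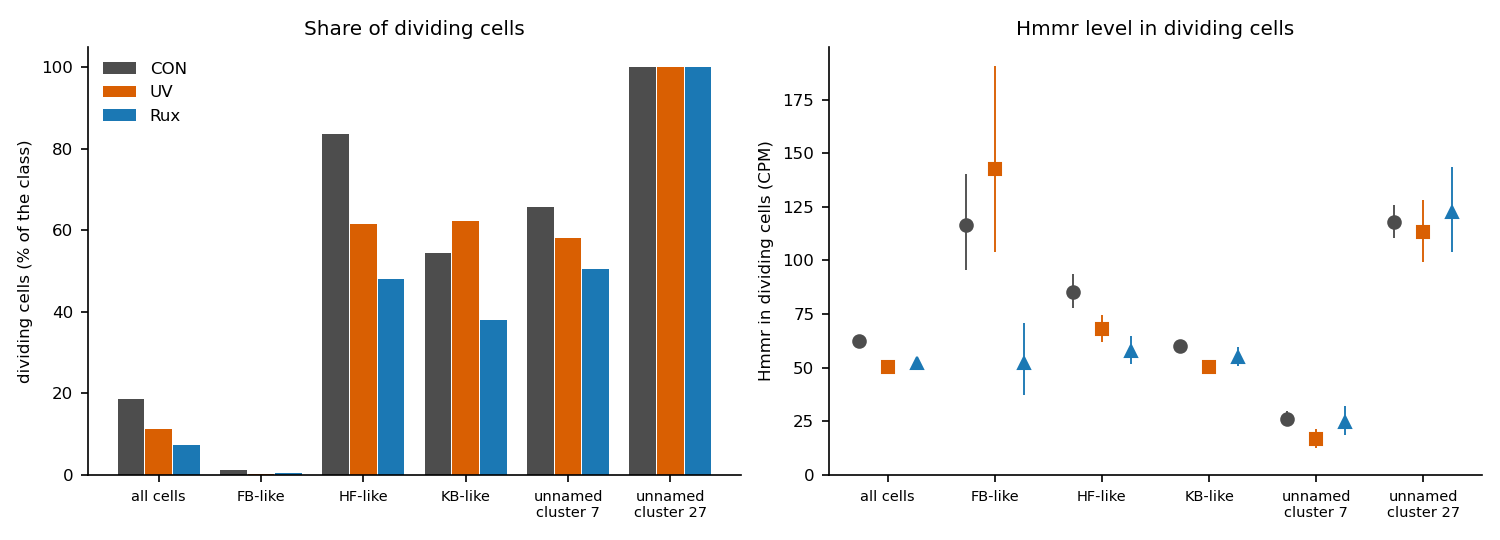
Left, share of each class called dividing, in percent; right, Hmmr level within the dividing cells, in CPM with exact 95% Poisson intervals, both by class and library. Over all kept cells the share is 18.6%, 11.2% and 7.26% in CON, UV and Rux, while the level within dividing cells is 62.3, 50.2 and 52.1 CPM.

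Genes whose levels over the 27 class sums (9 classes in 3 libraries) ran most like each member are given as a description. The sums share libraries and depth, and r is Pearson's on log2(CPM + 1). Has1 ran most like Serpinf1, Podn and Osr2 (r = 0.946 to 0.933). Has2 ran most like Pdzrn3, Wdr35 and Htra1 (0.923 to 0.903), and Has3 like Cdv3, Galnt14 and Wdr53 (0.853 to 0.845). Hyal2 ran most like F11r, Efna1 and Cmtm8 (0.906 to 0.861), and Hyal1 like Naa80, which it overlaps, Zfp710 and Slc25a37 (0.729 to 0.697). Cemip, at low counts, ran most like Kif2a, Sipa1l3 and Trip12 (0.796 to 0.730). Cd44 ran most like Runx1, Pygl and Trerf1 (0.886 to 0.869). Hmmr ran most like Hist1h2ap, Ccna2 and Kif18b (0.956 to 0.9501).

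The other genes of hyaluronan handling were taken from a list of 43 genes, all of them in the matrices. In FB-like cells 28 reached 10 CPM in UV over CON, of which 6 were past 1.5-fold higher, against 6.21% of all tested genes, and 1 lower, against 8.13%. Among those higher, 3 supply the precursors: Ugdh, which makes UDP-glucuronic acid, at 980, 1753 and 1184 CPM (0.84 for UV over CON), Ugp2, which makes UDP-glucose, at 132, 261 and 299 CPM (0.98), and Gnpnat1 of the UDP-N-acetylglucosamine route at 21.9, 37.8 and 35.2 CPM (0.78). The others were Has2os, antisense to Has2, at 20.1, 37.8 and 25.2 CPM (0.91), Cemip2 at 59.2, 111 and 112 CPM (0.91), and Ptx3, which helps to cross-link hyaluronan, at 394, 782 and 572 CPM (0.99). Acan, the aggregating proteoglycan aggrecan, was lower at 34.1, 9.13 and 7.06 CPM (−1.90). With equal weight per cell, no listed gene that reached 10 CPM, Acan included, was past 1.5-fold lower in UV over CON or Rux over CON.

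In Rux over UV 0 of 27 such genes were past 1.5-fold in either direction, against 3.27% of tested genes higher and 5.12% lower. Those just inside it were Ugdh at −0.57 and Has2os at −0.58, both lower in Rux, and Mmp14, a surface protease that cuts Cd44, at 0.56. In Rux over CON 4 of 28 were higher, Ugp2 (1.18), Cemip2 (0.92), Vcan (0.74) and Gnpnat1 (0.68), and 1 was lower, Acan (−2.27). Of all tested genes 7.02% were higher and 10.1% lower in that contrast. Vcan encodes versican, a hyaluronan-binding proteoglycan, at 267, 367 and 448 CPM. Tnfaip6, which moves heavy chains onto hyaluronan, was abundant in all libraries at 2341, 2211 and 2005 CPM and within 1.5-fold in every contrast. The median log2 ratio of the list was 0.12, 0.03 and 0.17, beside −0.11, 0.03 and −0.08 for all tested genes. The UV over CON count was 2 of those genes when subcluster 0 was left out, and 2 when subclusters were weighted by CON shares.

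**Figure D5:**
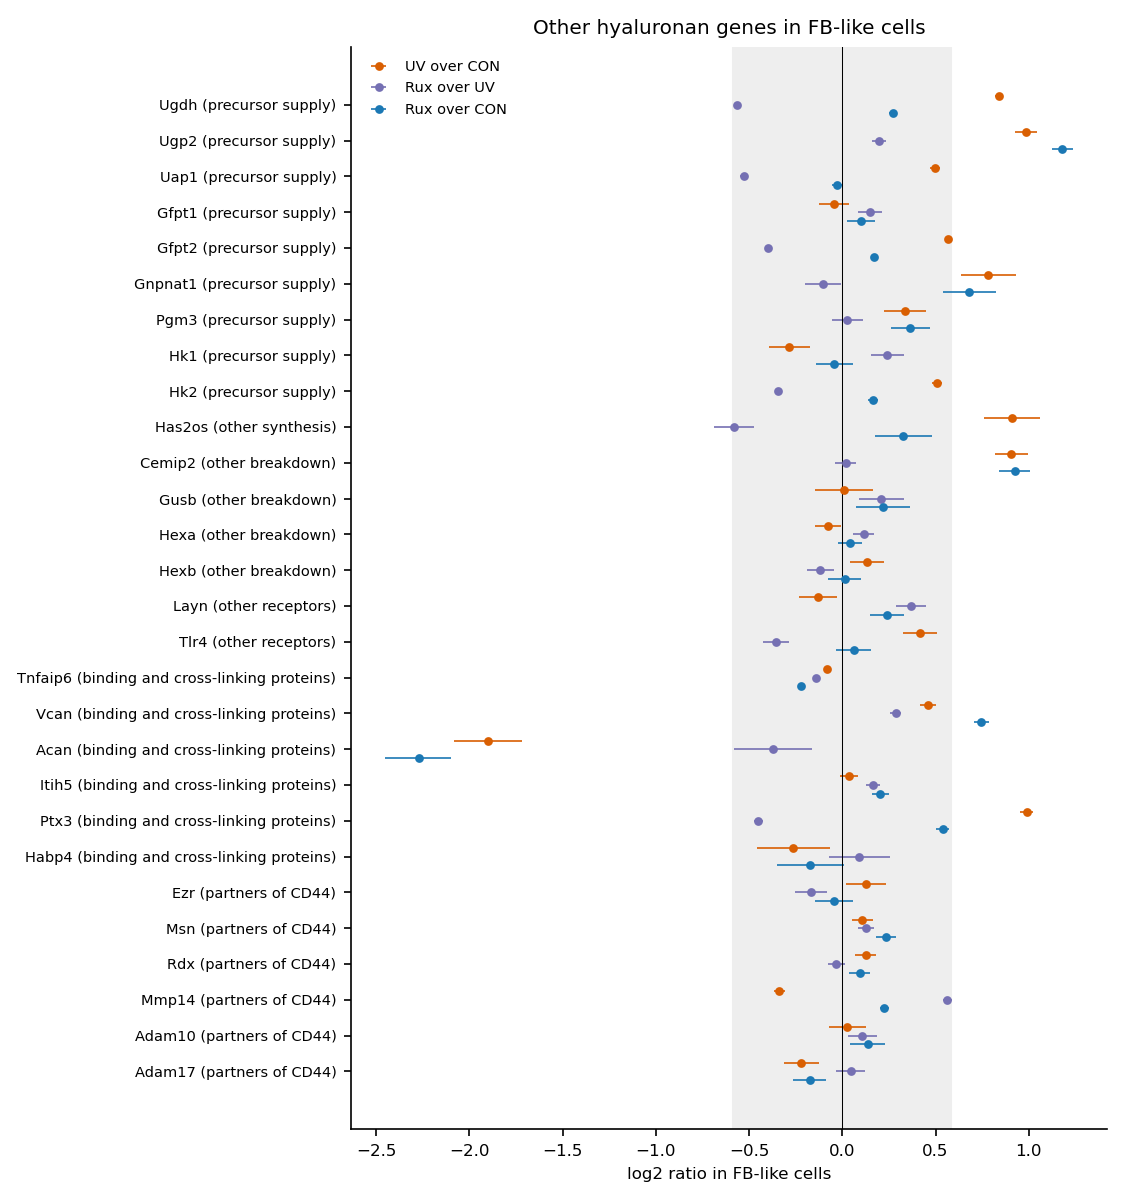
Log2 ratios of the other hyaluronan genes that averaged 10 CPM or more in FB-like cells, for UV over CON, Rux over UV and Rux over CON; bars are exact 95% intervals from the UMI counts and the grey band is within 1.5-fold. In UV over CON 6 of 28 genes lie above the band and Acan below it at −1.90, and in Rux over UV 0 of 27 lie outside it; Acan is drawn there too although its mean was under 10 CPM.

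Other classes held further genes of the list. Stab1, a scavenger receptor for hyaluronan, was at 353, 498 and 550 CPM in LEC-like cells, and Cemip2 at 827, 922 and 641 CPM. Spp1, which encodes osteopontin, was at 25.6, 183 and 1058 CPM in MYE-like cells, highest in Rux like the class sum of Cd44.

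Markers of other cell types were low in FB-like cells and moved with the libraries. Summed KB markers were at 250, 106 and 106 CPM, MYE markers at 53.1, 25.6 and 30.4, VEC markers at 27.4, 68.7 and 50.8, LYM markers at 2.24, 1.14 and 1.57 and NEU markers at 4.28, 3.83 and 24.3 CPM. No marker of these lists was at 0 in all libraries. Cd44 is high in the myeloid cells and neutrophils and was 659, 1178 and 1270 CPM in FB-like cells, a different order from the MYE marker sum. Their part in the fibroblast values was not tested.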

How the data were processed

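The deposited matrices hold unnormalized UMI counts of genes in called cells, made by the authors with Cell Ranger. The submitters' processing notes name version 6.1.2, the matrix headers give 7.0.0, and whether introns were counted is not given in the sources used here. Gene coordinates came from GENCODE M21 (GRCm38), in which 32158 of the 32285 gene identifiers were found, and promoters came from RefSeq.

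Cells were kept when 200 or more genes were detected and no more than 10% of UMIs came from mitochondrial genes. Scrublet in scanpy 1.11.5 scored doublets, and because its own threshold called 0, 0 and 238 cells, the highest scoring 0.8% per 1000 cells were removed (1269, 1128 and 923). Seurat 5.3.0 in R 4.3.3 clustered all cells on 30 components of 2000 variable genes, of which 1998 were used after the members were left out, at a resolution of 1.5 without batch correction. FB-like cells were clustered again on 20 components at 0.5. A class took its name from at least 3 detected markers.

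UMIs were summed per class and library and scaled to CPM, with pandas 2.3.3, scipy 1.17.1 and numpy 2.4.6 in Python 3.11.15, and drawn with matplotlib 3.10.9. Levels carry exact Poisson intervals, shares exact Clopper-Pearson intervals and ratios exact conditional binomial intervals. Only the ratios and their intervals were tried on simulated data, drawn as Poisson counts without variation between cells or libraries. FB-like cells had 23612337, 39415997 and 56120494 UMIs and KB-like cells 44106294, 26968141 and 19941377, so their intervals are narrow, while small classes have wide ones. With 1 library per condition no test was made. Genes are named when they are members, listed hyaluronan genes past 1.5-fold in FB-like cells at a mean of at least 10 CPM or needed by a sentence, or the 3 genes most like a member. The members and lists were chosen with earlier results of these data known. Alternatives were other scalings, cell filters, resolutions, minima, folds and weights of clusters. A protein comparison of the synthases was not made.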

Additional observations from a re-analysis of the deposited data

Results flagged for a closer look

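The ratios of 3 members went opposite ways in different classes, and none of these differences between classes was tested. A ratio was counted when it was past 1.5-fold at a mean of at least 10 CPM, with its interval on the same side of 0. How many of all genes do so was not computed, so this count describes the members only. Has1 in UV over CON was 0.66 in HF-like cells, −0.85 in LYM-like cells and −0.72 in VEC-like cells, from 154 and 366, 111 and 59, and 156 and 121 UMIs in CON and UV. Without doublet removal the ratios were 0.58, 0.33 and 0.95, so the opposite directions were then gone. In LYM-like cells Has1 was 39.7 and 40.0 CPM in CON and UV in cluster 15, and 37.1 and 33.6 in cluster 41. It was 126 and 112 CPM in cluster 43 (Zmat4, Trdc, Cd3g), which held 94 cells in CON and 4 in UV. VEC-like clusters had 75.5 and 43.6 CPM (13) and 43.3 and 13.6 (29). HF-like clusters had 25.7 and 43.6 CPM (22) and 24.3 and 35.0 (24). In these classes Has1 per fibroblast marker UMI was 0.868 to 1.31 times that of FB-like cells in CON and UV, and the part of free fibroblast RNA was not tested. Has2 in Rux over CON was 0.71 in FB-like cells and −1.25 in PCY-like cells, the latter from 62 UMIs in CON and 20 in Rux. The share of PCY-like cells with a Has2 UMI did not go that way. Thinned to 2000 UMIs it was 3.48% (1.41 to 7.04) in CON and 5.50% (2.05 to 11.6) in Rux. Cd44 in Rux over CON was 0.95 in FB-like cells and −0.97 in SCH-like cells, the latter from 193 and 95 UMIs. The unthinned share of SCH-like cells with a Cd44 UMI was 38.2% in CON and 35.2% in Rux, with overlapping intervals. Classes of 1 library each carry no replicate error, and the part of the library in these values was not tested.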

How the results depend on the processing

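No paired analysis was possible because each condition had 1 library. Settings that leave out or add a cluster, the weighting of KB-like clusters, the weighting of fibroblast subclusters for the other hyaluronan genes and the removal of shared barcodes were chosen after seeing the data; the last changed none of the counts below by over 1.5 times. Of 80 single ratios, 38 were past 1.5-fold, and 17 of these stayed past it on the same side in all settings tried for them. These ratios were of members at a mean of 10 CPM or more in classes other than LEC-like cells. The removal of shared barcodes was not among their settings. Settings that leave out, add or weight clusters were tried in FB-like or KB-like cells only, so ratios of other classes met fewer settings.

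For members in FB-like cells, UV over CON had 2 higher and 0 lower. It had 1 higher with the strict cell filter, without subcluster 0 or with subclusters weighted by CON shares and 0 at a fold of 2, and 3 lower with at least 10 UMIs in place of 10 CPM and 1 at a fold below 1.5. Rux over UV had 0 higher and 1 lower. It had 1 higher with the strict filter or at least 10 UMIs, and 2 lower with the latter. Rux over CON had 2 higher and 1 lower. It had 1 higher without subcluster 0, 0 with subclusters weighted by CON shares or at a fold of 2, and 4 lower with at least 10 UMIs.

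For members in KB-like cells, UV over CON had 1 higher and 0 lower. It had 0 higher without doublet removal, 2 higher and 1 lower at resolution 0.8, and 0 higher and 1 lower with clusters weighted by CON shares. Rux over UV had 0 lower, and 2 at resolution 0.8. Rux over CON had 0 in either direction, 1 higher and 1 lower at resolution 0.8, and 1 lower with the strict filter.

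For the other hyaluronan genes, UV over CON had 6 higher and 1 lower. It had 2 higher without subcluster 0 or with subclusters weighted, 12 higher and 2 lower with at least 10 UMIs, 2 lower without subcluster 3 and 0 lower with equal weight per cell. Rux over UV had 0 in either direction. It had 2 higher with median-of-ratios scaling and 1 higher with equal weight per cell, with totals that omit keratin, haemoglobin and mitochondrial genes, with unnamed cluster 3 added, without subcluster 0, 3 or 10, and with at least 10 UMIs. It had 1 lower with the strict filter, without doublet removal or at resolution 0.8, 2 without subcluster 3, 3 with subclusters weighted and 4 with at least 10 UMIs. Rux over CON had 4 higher and 1 lower. It had 2 higher without subcluster 3, 1 with subclusters weighted, 8 higher and 2 lower with at least 10 UMIs, and 0 lower with equal weight per cell.

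Over pairs of member and class, UV over CON had 4 lower, and 1 with equal weight per cell or without doublet removal. Rux over UV had 1 higher, and 2 with the strict filter, equal weight per cell or median-of-ratios scaling. The class with the highest level stayed the same for 6 of 8 members at resolution 0.8, without doublet removal and with median-of-ratios scaling, and for 7 with equal weight per cell. Has2 was then highest in FB-like cells in all 4.

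Shares of cells with a UMI, thinned to 2000 UMIs, had separate intervals in FB-like cells for 0 members lower in UV over CON (1 without thinning), 0 higher in Rux over UV (4 without thinning) and 1 lower in Rux over CON (2 when thinned to 4000 UMIs). In KB-like cells 2 were higher in UV over CON (7 without thinning) and 1 lower in Rux over UV (2 when thinned to 4000, 5 without thinning). There 0 were higher and 0 lower in Rux over CON (2 and 1 without thinning, and 1 lower at 4000). No share over all genes was computed for these counts or for the pairs of member and class, so both describe the members only.

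The direction turned for Has2 in FB-like cells in UV over CON, −0.026 without subcluster 0 and −0.13 with subclusters weighted, and for Has1 in UV over CON without doublet removal, 0.33 in LYM-like and 0.95 in VEC-like cells. The cause was not tested. Counts under 10 CPM, as of Has3, Hyal1 and Cemip in most classes, limit what can be seen.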
